A study of Mus musculus with 18 samples.

Results

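Genes of neurotransmitter receptors were described in sorted alpha, beta and delta cells of mouse islets, without and with interferon gamma (IFNγ). They were taken by symbol from the families of the receptors for glutamate, gamma-aminobutyric acid (GABA), glycine, acetylcholine, noradrenaline, serotonin and dopamine. Of 99 coding genes with such a symbol, 31 held at least 90 expected counts summed over the 18 libraries and were kept, out of 55487 gene identifiers in all. The other 68 stayed under that sum, 22 of them at 0 counts in every library. Gabrg3 with 100 and Glra1 with 93 expected counts lay just inside the minimum, and Chrnb4 with 88 and Gabra5 with 82.59 just outside. Of the 31 genes, 30 passed the low-count filter and were tested among 17338 genes, and Gabra4 with 107 counts did not pass. The antisense transcripts Grin1os and Chrna1os, with 127 and 175 counts, match the letters of the families but encode no receptor and were left out.

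Islets came from 12-week-old male mice of the strain C57BL/6, and all groups shared this background. They were cultured for 20 h, either as controls or with IFNγ at 5 ng/mL, and then dissociated and sorted. Among Epcam-positive cells free of the blood and endothelial markers CD45, TER119 and CD31, a high CD24 level marked delta cells, and the CD24-low rest was split by CD71 into positive beta and negative alpha cells. There were 6 groups with 3 libraries each, which the study calls independent biological samples. The sources used here do not say whether islets of several mice were pooled. In bulk RNA of sorted cells, fewer cells that express a gene and less RNA per cell cannot be told apart.

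Ionotropic receptors are channels that a transmitter opens. They are built from several subunits, so that a cell needs the RNA of a fitting set. Excitatory glutamate receptors (AMPA, kainate and NMDA types) and nicotinic acetylcholine receptors pass cations, while GABA-A and glycine receptors pass chloride. Metabotropic receptors, which include GABA-B, muscarinic, adrenergic and most serotonin receptors, act through G proteins. In islets, GABA and glutamate are released by the endocrine cells themselves, and autonomic nerves bring acetylcholine, which raises insulin secretion through muscarinic receptors, and noradrenaline, which lowers it through alpha2-adrenergic receptors.

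The libraries summed to 6128845 to 11531734 expected counts (median 8697388). Levels between libraries are given as CPM (counts scaled to library size) and levels between genes as TPM, which also divides by transcript length, both as mean ± SD over n = 3 libraries. The hormone genes marked the sorts, with Gcg at 94789 ± 20344 CPM in control alpha cells, Ins2 at 28161 ± 2458 CPM in control beta cells and Sst at 28469 ± 11925 CPM in control delta cells. Alpha control 2 held more beta cell RNA than the other alpha controls, with Ins2 at 6503 CPM against 1728 and 633 CPM. The 10 acinar genes summed to between 2.59 and 1802 CPM in beta controls, where beta control 1 was highest, and to between 956 and 2226 CPM in delta controls, against at most 36.6 CPM in any alpha library. Gcg reached 2263 CPM in delta control 3. The 3 genes of the polypeptide and ghrelin list summed to 3269 to 4532 CPM in alpha and 3485 to 8235 CPM in delta controls but 104 to 733 CPM in beta controls, the direction of the receptor genes that were lower in beta cells than in both others, and the part of such cells in those results was not tested. The 6 endothelial and the 6 immune genes summed to at most 7.79 and 3.55 CPM in any library, and the 6 mesenchymal genes to at most 10.9 CPM. Of the 9 Schwann and nerve genes, 2 were at 0 in all libraries, Prph among them, and Sox10 at 0.234 CPM or less, while Snap25, which endocrine cells also use for exocytosis, made up most of the sum with 94.9 to 225 CPM. The 6 duct genes summed to between 811 and 1270 CPM in alpha controls, 407 and 603 CPM in beta controls and 275 and 400 CPM in delta controls. Over all libraries Spp1 reached 1259 CPM and Sox9 34.5 CPM, while Krt19 and Cftr stayed at or under 7.27 and 3.76 CPM. The part of duct RNA in the receptor levels was not tested. Beta control 3 carries the word papain in its name in place of CD71, and the sources used here do not say how its preparation differed.

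The receptor genes differed between the cell types in sets. In control cells, Gabbr2, Adra2a, Chrm3, Grin1 and Glra1 were higher in beta cells than in alpha and in delta cells. Gabrg1, Gabrg3, Gabre, Chrm4 and Grm8 were among those higher in delta cells than in both others, and Adrb1 was higher in alpha cells than in both others. The AMPA and kainate subunit genes Gria2, Gria3, Grik2 and Grik4, the adrenergic receptor gene Adra1a and the nicotinic subunit gene Chrnb1 were among those lower in beta cells than in both others, and Glrb was lower in delta cells than in both others. Chrna2 was higher in alpha than in beta cells and Grin2c higher in beta than in alpha cells. For 8 genes, Grik5, Chrnb2, Gabbr1, Grin2d, Grin3a, Grin3b, Gabrb1 and Htr2b, no pair of control cell types passed the test.

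**Figure D1:**
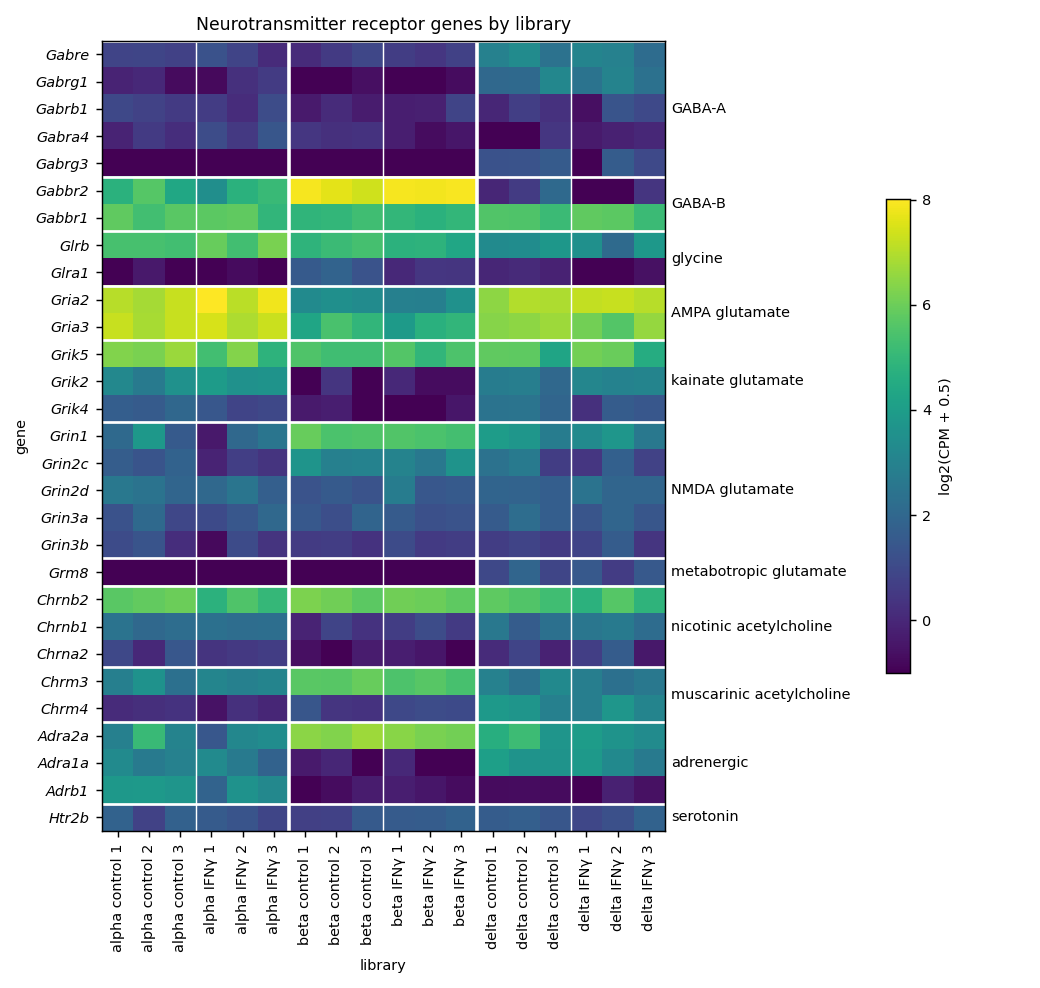
Heat map of receptor genes (rows, by receptor family) in the 18 libraries (columns, 3 for each group), coloured by log2(CPM + 0.5). Gabbr2 is bright in the 6 beta libraries and dark in the 6 delta libraries, Gria2 is bright in alpha and delta libraries, and Grm8 and Gabrg3 are at 0 in all alpha and beta libraries.

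Genes were called at an adjusted p under 0.05 by the quasi-likelihood test of edgeR. Between control alpha and control beta cells, 15 of 30 receptor genes were called. In 9 the level was higher in alpha cells, beside 9.56% of all tested genes called that way, and in 6 it was higher in beta cells, beside 10.1%. Between control delta and control beta cells, 19 were called, 13 higher in delta cells beside 11.4% of all tested genes and 6 higher in beta cells beside 9.11%. Between control delta and control alpha cells, 9 were called, 6 higher in delta cells beside 10.9% and 3 higher in alpha cells beside 8.77%. The median log2 difference of the 30 genes was 0.57 for alpha against beta, 0.79 for delta against beta and 0.03 for delta against alpha, beside medians of 0.04, 0.05 and 0.03 over all tested genes. A gene that passes the count filter only through the cell type in which it is high must differ, so these counts describe the set and are no test of it. Within the dates that held libraries of both cell types, all 15 genes called between alpha and beta controls kept their direction on both such dates, as did 19 of 19 for delta against beta and 9 of 9 for delta against alpha on 1 date each. The genes were called from these same libraries, so this agreement describes them and is no independent test. Without beta control 1 and delta control 3, the libraries with the most acinar RNA of their groups, the counts were 13, 14 and 9. Without alpha control 2 they were 13, 19 and 11. The share of all tested genes called without these libraries is not given here, so these counts cannot be set beside it. The part of the acinar and beta cell RNA in these counts was not tested.

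GABA-B is an inhibitory receptor made of an obligate pair, in which Gabbr1 binds GABA and Gabbr2 brings the pair to the membrane and couples it to the G protein. Gabbr2 (ENSMUSG00000039809, GRCm38 chr4:46662305-46991873, minus strand) had 238, 200 and 164 CPM in the beta controls, 26.4, 49.4 and 20.0 CPM in the alpha controls and 0.477, 0.973 and 3.74 CPM in the delta controls. The groups did not overlap, and the order was beta, then alpha, then delta. The log2 difference was -2.65 ± 0.51 (SE) for alpha against beta (adjusted p = 0.00103), -6.86 ± 0.65 for delta against beta (adjusted p = 3.58e-07) and -4.21 ± 0.61 for delta against alpha (adjusted p = 5.96e-05). The alpha control with the most Gabbr2 was also the one with the most Ins2: alpha control 2 held 24.6% of the mean Gabbr2 level of control beta cells and 23.1% of their Ins2, while alpha control 3 held 9.96% and 2.25%. Without alpha control 2 the log2 difference of alpha against beta was -3.12, and the part of beta cell RNA in the alpha level was not tested.

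Gabbr1 (ENSMUSG00000024462, GRCm38 chr17:37045966-37075067, plus strand) had 55.9, 38.7 and 51.7 CPM in alpha, 29.3, 31 and 38.0 CPM in beta and 47.3, 46.1 and 34.8 CPM in delta controls. No pair passed the test, with 95% intervals of the log2 difference from 0.07 to 1.08 for alpha against beta, -0.12 to 0.88 for delta against beta and -0.69 to 0.31 for delta against alpha. On the length-scaled TPM, the ratio of Gabbr2 to Gabbr1 lay between 1.76 and 2.97 in the beta controls, between 0.194 and 0.495 in the alpha controls and between 0.00441 and 0.0387 in the delta controls. The delta cells thus held Gabbr1 RNA with little of its partner's.

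**Figure D2:**
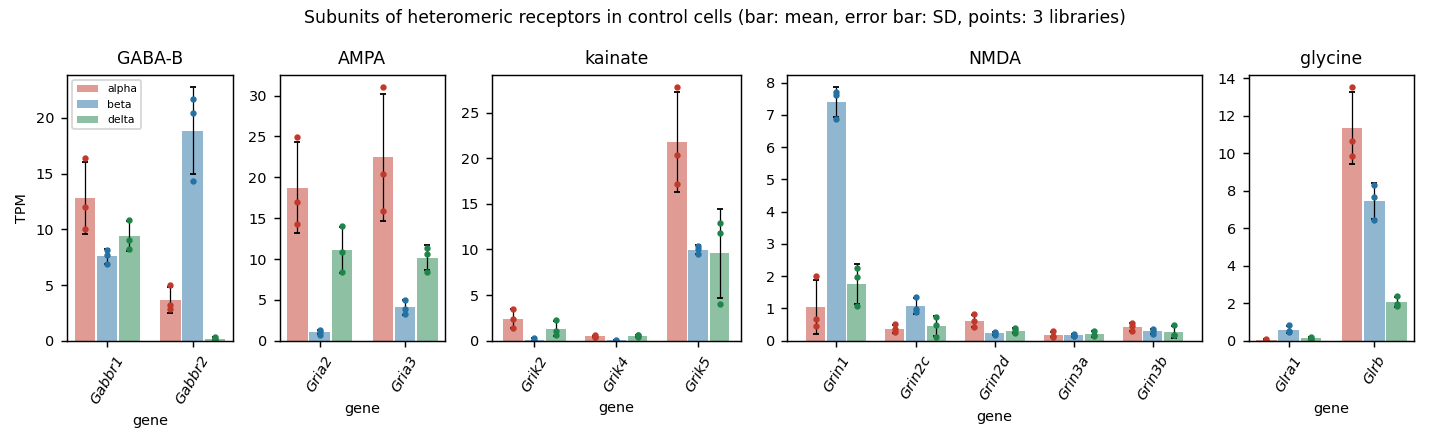
TPM of subunit genes of 5 heteromeric receptors in control alpha (red), beta (blue) and delta (green) cells, with bars for the mean, error bars for the SD and points for the 3 libraries. Gabbr1 is present in the 3 cell types while Gabbr2 averages 18.8 TPM in beta, 3.65 TPM in alpha and close to 0 in delta cells. Gria2 and Gria3 are low in beta cells, and Grin1 stands out in beta cells.

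The AMPA receptor carries fast excitatory glutamate signals, and its subunit Gria2 sets the low calcium entry of the channel. Gria2 (ENSMUSG00000033981, GRCm38 chr3:80681450-80802835, minus strand) had 133, 111 and 153 CPM in alpha, 89.6, 125 and 118 CPM in delta and 9.40, 10.8 and 9.59 CPM in beta controls. Every alpha and delta control lay above every beta control, with log2 differences to beta of 3.73 ± 0.26 (SE, adjusted p = 3.45e-08) and 3.48 ± 0.26 (adjusted p = 2.07e-08). Alpha and delta controls overlapped, with a 95% interval of the log2 difference of delta against alpha from -0.73 to 0.22. Gria3 had 151, 113 and 153 CPM in alpha, 83.3, 88.0 and 102 CPM in delta and 19.4, 42.4 and 30.0 CPM in beta controls, with log2 differences to beta of 2.18 ± 0.31 (adjusted p = 4.72e-05) and 1.57 ± 0.30 (adjusted p = 0.000806). Gria1 held 2 counts in all libraries together and Gria4 held 0. Per length, Gria3 and Gria2 were among the 3 highest of the 31 genes in control alpha cells with 22.5 ± 7.76 and 18.8 ± 5.53 TPM. The ratio of Gria2 to Gria3 TPM was 0.845 ± 0.0508 in alpha and 1.09 ± 0.133 in delta controls and 0.260 ± 0.0655 in beta controls.

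Gria2 and Chrm4, a gene high in delta cells that is described further on, share a feature of their promoters. REST is a repressor that keeps neuronal genes silent in other tissues, is low in neurons and endocrine cells, and binds the motif RE1. The RefSeq promoter windows (250 bases before to 50 after each start, GRCm38.p6) of 24 of the 31 genes were searched on both strands for TTCAGCACC and GGACAGNGC separated by 2 bases, with at most 3 mismatches in the 17 defined bases. Of 27 windows of these genes, 2 held such a match, as did 60 of all 32851 windows (0.183%). The 250 bases before the starts of Gria2 (chr3:80802836-80803085, minus strand, 1 mismatch) and Chrm4 (chr2:91921939-91922188, plus strand, 3 mismatches) are shown 5′ to 3′ with the match in capitals, which in both reads as the reverse complement of the motif.
Gria2: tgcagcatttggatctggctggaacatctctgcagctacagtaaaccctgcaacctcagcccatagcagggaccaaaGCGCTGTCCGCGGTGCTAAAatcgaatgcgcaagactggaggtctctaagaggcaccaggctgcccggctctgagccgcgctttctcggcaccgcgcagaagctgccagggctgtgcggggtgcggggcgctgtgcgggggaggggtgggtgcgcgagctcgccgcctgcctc
Chrm4: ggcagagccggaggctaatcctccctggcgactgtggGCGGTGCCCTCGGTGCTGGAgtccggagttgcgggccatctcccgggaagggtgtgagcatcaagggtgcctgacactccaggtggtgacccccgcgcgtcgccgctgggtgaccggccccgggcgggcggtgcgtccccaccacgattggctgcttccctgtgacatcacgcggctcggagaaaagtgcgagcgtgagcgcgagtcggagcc
The match spans bases -173 to -154 from the start in Gria2 and -213 to -194 in Chrm4. Rest itself was low, with 0.142 to 0.304 CPM in beta controls, 0.402 to 1.02 CPM in alpha controls and 0.865 to 4.98 CPM in delta controls. The match describes these letters, and binding was not measured. Glra1, Gria3, Adra1a, Chrna2 and Grin3a were among the genes with no entry in the promoter windows.

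Kainate receptors are a further family of glutamate channels, in which Grik5 and Grik4 form channels together with a subunit such as Grik2. Grik5 had 79.5, 73.9 and 101 CPM in alpha, 46.1, 37.3 and 37.9 CPM in beta and 55.2, 54.8 and 18.8 CPM in delta controls, and no pair passed the test. Grik2 had 8.72, 5.89 and 11.4 CPM in alpha and 6.39, 6.70 and 3.63 CPM in delta controls but 0, 0.820 and 0 CPM in beta controls. Its log2 difference to beta was 4.76 ± 0.65 (SE) in alpha (adjusted p = 3.22e-05) and 4.12 ± 0.65 in delta cells (adjusted p = 0.00012). Grik4 was also low in beta cells, with 2.76, 2.54 and 3.53 CPM in alpha, 4.96, 4.97 and 3.32 CPM in delta and at most 0.351 CPM in beta controls (adjusted p = 0.00142 and 0.000273). On TPM, the ratio of Grik2 to Grik5 was 0.0817 to 0.125 in alpha controls, 0.0533 to 0.266 in delta controls and at most 0.0308 in beta controls. Grik1 and Grik3 held 1 and 10 counts in all.

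NMDA receptors need the subunit Grin1 and pair it with a member of the Grin2 or Grin3 group. Grin1 (ENSMUSG00000026959, GRCm38 chr2:25291181-25319187, minus strand) had 60.3, 43.3 and 45.8 CPM in beta, 3.78, 13.4 and 2.46 CPM in alpha and 15.2, 12.8 and 6.33 CPM in delta controls. The beta controls lay above all others, with log2 differences of -2.94 ± 0.62 (SE, adjusted p = 0.00204) for alpha and -2.12 ± 0.58 (adjusted p = 0.0135) for delta cells against beta cells. Without delta control 3 the latter had an adjusted p of 0.0597. The highest alpha value was again that of alpha control 2, and without it the log2 difference of alpha against beta was -4.01. Grin2c was the Grin2 gene higher in beta than in alpha cells, with 12.1, 7.14 and 7.46 CPM against 2.62, 2.01 and 3.10 CPM (log2 difference -1.78 ± 0.54, adjusted p = 0.0256), and it lost the call without any 1 of the alpha controls or without beta control 1. Delta controls held 4.77, 5.84 and 1.04 CPM of it. Grin2d, Grin3a and Grin3b lay between 0.641 and 5.67 CPM in the controls with no call. Grin2a held 13 counts and Grin2b 0. The antisense transcript Grin1os, which overlaps Grin1, averaged 2.18 ± 1.15 CPM in beta controls. Grin2d overlaps Kdelr1 on the other strand, at 35.9 to 107 CPM, and Grin3b overlaps Tmem259, at 19.6 to 57.2 CPM. The library kit marks strand, but the sources used here do not say whether counting used it, so the reads of these overlaps have an uncertain owner.

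Metabotropic glutamate receptors lower or raise second messengers, and Grm8, which couples to inhibitory G proteins, was the member of this family with enough counts. It had 1.43, 3.35 and 1.35 CPM in the delta controls and 0 counts in all 12 alpha and beta libraries. With a floor of 3 counts over the group of 0, its level in delta controls was at least 14.8-fold higher than in beta and at least 15.9-fold higher than in alpha controls. Grm8 was kept through its delta counts alone, so this difference is a description. Of the 7 other genes, Grm5 and Grm7 held 0 counts, and the others between 1 and 51.

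GABA-A receptors are chloride channels of 5 subunits, usually of the alpha, beta and gamma kinds. The gamma and epsilon subunit genes described here were higher in delta cells. Gabrg1 had 3.63, 3.68 and 8.51 CPM in delta controls, at most 0.535 CPM in alpha controls and 1 count in the beta controls together (adjusted p = 0.000956 against alpha and 7.85e-05 against beta). The ratio of summed levels to beta was 116, with a counting interval of 20.5 to 4615. Gabrg1 reached the minimum only through its delta counts, so these differences are a description. Gabrg3 had 1.91, 1.95 and 2.49 CPM in delta controls and 0 counts in all alpha and beta libraries, which makes it at least 16.7-fold higher than in alpha and at least 15.6-fold higher than in beta controls. It too was kept through its delta counts alone, and both calls were lost with the DESeq2 test, that against beta also without beta control 1 and delta control 3. Gabre had 7.35, 9.73 and 4.78 CPM in delta controls, 1.18 to 1.34 CPM in alpha and 0.570 to 1.37 CPM in beta controls (log2 difference 2.51 ± 0.46 and 2.91 ± 0.47, adjusted p = 0.000585 and 0.00016).

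Alpha subunits form the GABA binding site together with a beta subunit, and those described here were sparse. Gabra4 held 107 counts in all, at 0 to 2.13 CPM a library. Gabra5 held 82.6 counts, of which 40 fell in delta controls and 24.6 in delta IFNγ libraries. Gabra3 held 8 counts, and Gabra2 and Gabra6 held 0. Of the beta subunits, Gabrb1 lay at 0.139 to 2.04 CPM and Gabrb2 held 0 counts. GABA-A subunit genes lie in clusters, and neighbours in a cluster differed. On chromosome 5, Gabrg1, Gabra2, Gabra4 and Gabrb1 share a span of 1398 kb, and in delta controls they held 154, 0, 8 and 22 counts. Gabra4 overlaps the first bases of Gabrb1 on the opposite strand.

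**Figure D3:**
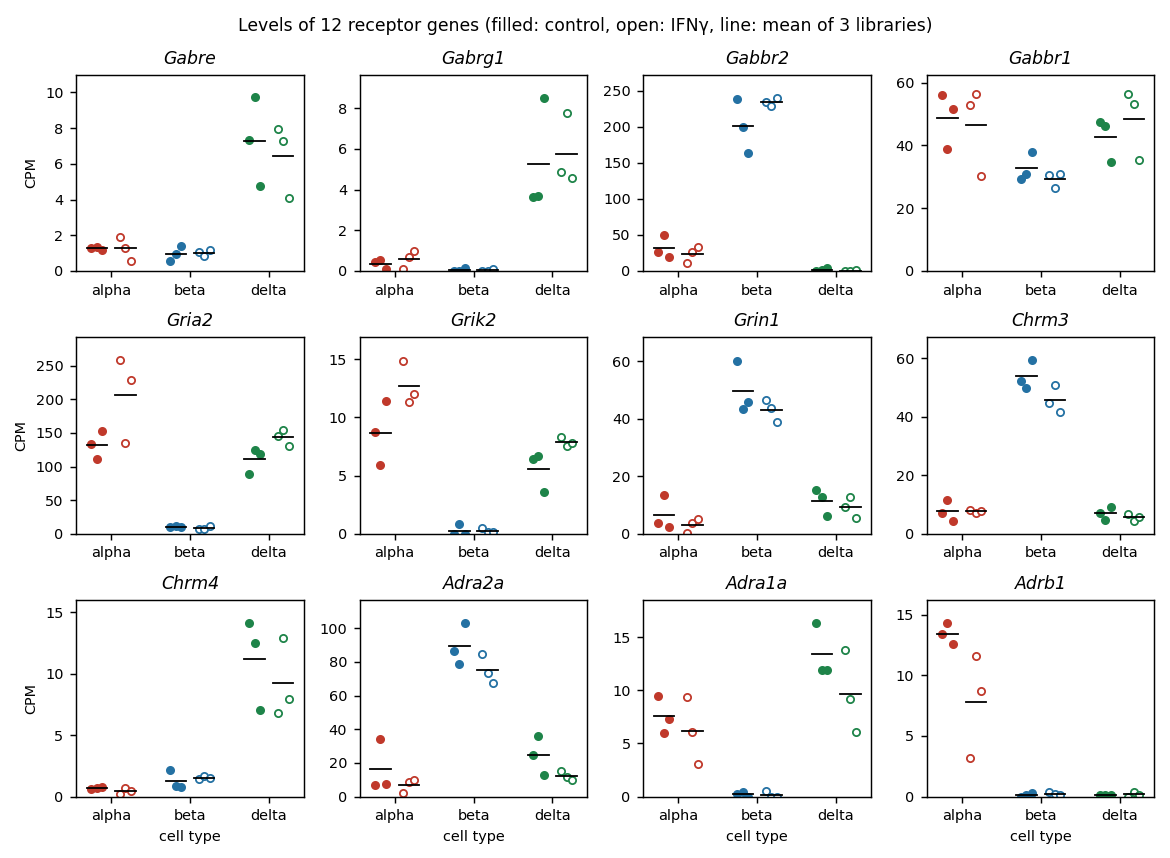
CPM of 12 receptor genes in alpha (red), beta (blue) and delta (green) cells, with filled points for control and open points for IFNγ libraries, lines for the mean of 3 libraries and axes that start at 0. Gabbr2, Grin1, Chrm3 and Adra2a are highest in the 6 beta libraries, Gabrg1, Gabre and Chrm4 in the 6 delta libraries and Adrb1 in the 6 alpha libraries.

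The glycine receptor joins an alpha subunit, which binds glycine, with the beta subunit Glrb. Glrb had 41.6, 41.8 and 38.4 CPM in alpha, 28.8, 34.8 and 40.9 CPM in beta and 9.54, 9.84 and 13.1 CPM in delta controls. Delta cells were lower than alpha (log2 difference -1.91 ± 0.33 SE, adjusted p = 0.00034) and beta cells (-1.69 ± 0.33, adjusted p = 0.000886). Glra1, the alpha subunit of adult spinal cord, was seen at low levels, with 2.42, 3.16 and 1.98 CPM in beta controls, 0.415 to 0.541 CPM in delta controls and 2 counts in the alpha controls together. Its level in beta controls was 30.5 times that in alpha controls, with a counting interval of 8.07 to 258 (adjusted p = 0.00129), and it was higher than in delta controls with an adjusted p of 0.0259, a call that was lost without any 1 of the delta controls and without beta control 1 or 2. Glra1 reached the minimum only through its beta counts, so these differences are a description. Glra2 held 0 counts, and Glra3 held 22, of which 20 were in alpha IFNγ libraries.

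Among acetylcholine receptors, the muscarinic genes split between beta and delta cells. Chrm3 (ENSMUSG00000046159, GRCm38 chr13:9875486-10360847, minus strand), which couples to phospholipase C and is the main muscarinic receptor of the beta cell, had 52.3, 50 and 59.5 CPM in beta, 6.97, 11.5 and 4.49 CPM in alpha and 7.25, 4.76 and 9.24 CPM in delta controls. The beta controls lay above all others, with log2 differences of -2.82 ± 0.29 (SE) for alpha (adjusted p = 1.67e-06) and -2.92 ± 0.29 for delta cells (adjusted p = 5.64e-07). Acinar cells also carry this receptor, and the log2 differences were -2.85 and -2.95 without beta control 1, the beta control with the most acinar RNA. The delta controls held 956 to 2226 CPM of the acinar genes, and the part of acinar RNA in the Chrm3 levels was not tested. Chrm4 (ENSMUSG00000040495, GRCm38 chr2:91927249-91928688, plus strand), which couples to inhibitory G proteins, had 14.1, 12.5 and 7.06 CPM in delta, 0.581, 0.669 and 0.748 CPM in alpha and 2.14, 0.820 and 0.761 CPM in beta controls. The log2 difference was 4.04 ± 0.49 to alpha (adjusted p = 8.64e-06) and 3.18 ± 0.46 to beta cells (adjusted p = 5.02e-05). Chrm1, Chrm2 and Chrm5 held 6, 9 and 0 counts in all.

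Of 16 nicotinic subunit genes, 3 had enough counts. Chrnb2, which in neurons pairs with an alpha subunit, lay between 37.7 and 74.8 CPM in all controls with no call, and it overlaps Adar on the other strand, at 43.6 to 140 CPM. Its usual partner Chrna4 held 20 counts in all, Chrna3 held 0 and Chrna7 held 47. Chrna2, an alpha subunit, had 1.45, 0.535 and 2.24 CPM in alpha and 3 counts in the beta controls together, a ratio of 10.9 with a counting interval of 3.43 to 55.3 (adjusted p = 0.035). This call was lost without any 1 of the beta controls and without alpha control 1 or 3. Chrnb1, a subunit of the muscle receptor, had 4.94, 3.61 and 4.17 CPM in alpha, 5.53, 2.60 and 4.57 CPM in delta and 0.427, 1.29 and 0.761 CPM in beta controls (adjusted p = 0.000791 and 0.000614 against beta). Chrna5, Chrna3 and Chrnb4, neighbours within 68 kb of chromosome 9, held 1, 0 and 88 counts.

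The adrenergic receptors were divided among the 3 cell types. Adra2a (ENSMUSG00000033717, GRCm38 chr19:54044151-54048982, plus strand), which lowers cyclic AMP, had 86.3, 78.6 and 103 CPM in beta, 7.12, 34.3 and 7.69 CPM in alpha and 24.8, 35.8 and 12.6 CPM in delta controls. The beta controls lay above all others, with log2 differences of -2.45 ± 0.53 (SE) for alpha (adjusted p = 0.00254) and -1.87 ± 0.51 for delta cells (adjusted p = 0.0132). Without delta control 3 the adjusted p for delta cells was 0.0598, and without alpha control 2 the log2 difference of alpha cells was -3.59 and that of delta against alpha reached an adjusted p of 0.0178. Adra1a, which couples to phospholipase C, had 9.44, 6.02 and 7.27 CPM in alpha, 16.3, 11.9 and 11.9 CPM in delta and at most 0.468 CPM in beta controls, with log2 differences to beta of 4.75 ± 0.71 (adjusted p = 8.33e-05) and 5.57 ± 0.70 (adjusted p = 9.31e-06). Adrb1, which raises cyclic AMP, had 13.4, 14.3 and 12.6 CPM in alpha controls and 3 counts in each of the beta and delta controls together. Its alpha level was 98.6 times that of beta (counting interval 33.4 to 481, adjusted p = 2.98e-06) and 131 times that of delta controls (44.4 to 638, adjusted p = 1.11e-06). Adrb1 reached the minimum only through its alpha counts, so these differences are a description. The other adrenergic genes held at most 73 counts in all.

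For serotonin and dopamine little was seen. Htr2b lay between 1.14 and 3.05 CPM in the controls with no call, and it lies within Psmd1, a proteasome gene on the other strand at 65.6 to 166 CPM. The other 13 serotonin receptor genes held at most 34 counts each in all 18 libraries, and 5 of them 0. Of the 5 dopamine receptor genes none reached the minimum, with 35 counts for Drd1, of which 28 fell in alpha IFNγ 1, 15 for Drd2, 12 for Drd3 and 0 for Drd4 and Drd5. At totals of 6128845 to 11531734 counts such genes were near or under what these libraries can measure, and their absence is not shown.

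The same comparisons were made among cells kept with IFNγ, which asks whether the differences between cell types held in the treated libraries. Between IFNγ alpha and beta cells 20 of 30 genes were called, 12 higher in alpha (beside 13.8% of all tested genes) and 8 higher in beta cells (beside 13.3%). Between IFNγ delta and beta cells 23 were called, 15 higher in delta (beside 18.4%) and 8 higher in beta cells (beside 18%). Between IFNγ delta and alpha cells 10 were called, 6 higher in delta (beside 8.87%) and 4 higher in alpha cells (beside 7.13%). Of the control calls, 14 of 15, 19 of 19 and 9 of 9 were also called with the same direction in the treated libraries, and no gene was called in opposite directions. The exception was Chrna2 between alpha and beta cells. How many of all genes called in controls were also called in the treated libraries is not given here. These counts therefore describe the receptor genes and do not set them apart from other genes. Genes called in treated libraries but not in controls included Chrm4, Chrnb2, Gabbr1, Gabrg1 and Glrb for alpha against beta, Chrna2, Chrnb2, Gabbr1 and Grin2c for delta against beta, and Gria3 for delta against alpha, and a test of the change itself, given below, called none of them. Gabbr2 had 234, 229 and 240 CPM in IFNγ beta, 10.4, 26.6 and 33.7 CPM in IFNγ alpha and 0, 0 and 0.819 CPM in IFNγ delta libraries. Adrb1 had 3.19, 11.6 and 8.70 CPM in IFNγ alpha libraries and at most 0.382 CPM in the others with IFNγ. On the dates shared by both cell types, all 20 genes of alpha against beta kept their direction on both dates, and 9 of 10 did for delta against alpha, where Gabrg3 was at 0 in delta IFNγ 1 and in its alpha partner. Here too the genes were called from the same libraries, so the agreement is no independent test. No date held delta and beta cells with IFNγ.

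**Figure D4:**
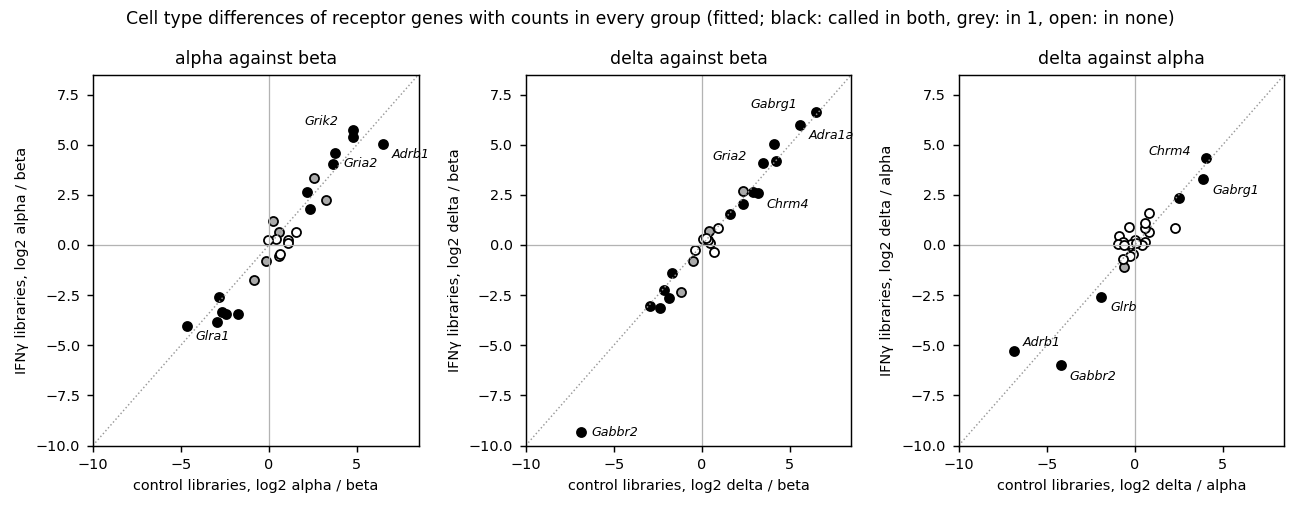
Fitted log2 difference between cell types in control libraries (x axis) and in IFNγ libraries (y axis), 1 point per receptor gene shown, in 3 panels for alpha against beta, delta against beta and delta against alpha. Genes with a group at 0 counts are left out, the dotted line marks equal values, and the points called in both (black) lie in the upper right and lower left, with Gabbr2 at -6.86 and -9.32 for delta against beta.

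Whether IFNγ itself moved the receptor genes was tested within each cell type. The treatment was seen in Irf1, a transcription factor gene that IFNγ induces, which rose from 37.7 ± 3.74 to 139 ± 13.3 CPM in alpha, from 38.0 ± 4.87 to 190 ± 41.9 CPM in beta and from 37.3 ± 5.82 to 180 ± 52.5 CPM in delta cells (adjusted p = 2.07e-05, 1.16e-06 and 1.45e-06). By the edgeR test, 0 of the 30 receptor genes were called in alpha cells, 0 in beta cells and 0 in delta cells, beside 0.975%, 1.06% and 1.39% of all tested genes. At an unadjusted p under 0.05 there were 5, 2 and 5. DESeq2 called 0 in each (5, 2 and 5 unadjusted) and limma-voom 0 in each (5, 2 and 4 unadjusted).

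In alpha cells the 5 genes at an unadjusted p under 0.05 included Gria2, Chrnb2, Grin2c and Adra2a. Gria2 had 258, 135 and 228 CPM with IFNγ against 133, 111 and 153 CPM in controls (log2 difference 0.65 ± 0.23 SE, adjusted p = 0.158). Chrnb2 had 27.2, 45.7 and 31.7 CPM with IFNγ against 52.2, 57.7 and 62.3 CPM (-0.72 ± 0.24, adjusted p = 0.152). Adar, which overlaps Chrnb2 on the other strand, averaged 104 ± 20.1 CPM with IFNγ against 76.4 ± 9.74 CPM in alpha controls, and its part in the Chrnb2 values was not tested. For Gria2 and Chrnb2, alpha IFNγ 2 was the treated library nearest to the controls. This library also stood apart from alpha IFNγ 1 and 3 in its balance of genes of low against high GC content, at -0.54 on the log2 scale against 0.99 and 0.85, while the alpha controls lay between -0.74 and -0.46. Without alpha IFNγ 2, 5 genes were called in alpha cells, among them Gria2 (log2 difference 0.88, adjusted p = 0.00945), Chrnb2 (-0.96, adjusted p = 0.0142), Grik5 (-1.35, adjusted p = 0.0327) and Grin2c (-2.09, adjusted p = 0.0459). The share of all tested genes called without that library is not given here, so this count cannot be set beside it. With all libraries and an offset for GC content, the log2 differences of Gria2, Chrnb2, Grik5 and Grin2c were 0.12, -0.46, -0.25 and -0.98, and none was called. Grin2c had 0.431, 1.10 and 0.774 CPM against 2.62, 2.01 and 3.10 CPM (-1.74 ± 0.61, adjusted p = 0.156). Adra2a had 2.24, 8.42 and 9.86 CPM against 7.12, 34.3 and 7.69 CPM (-1.26 ± 0.54, adjusted p = 0.194), where the high control was alpha control 2. Adrb1 had 3.19, 11.6 and 8.70 CPM against 13.4, 14.3 and 12.6 CPM, without overlap, at a log2 difference of -0.78 with a 95% interval from -1.73 to 0.18.

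In beta cells Glra1 had 0.533, 0.830 and 0.816 CPM against 2.42, 3.16 and 1.98 CPM in controls, without overlap (log2 difference -1.76 ± 0.71 SE, adjusted p = 0.893). For genes that were higher in beta cells, the 95% interval of the log2 difference ran from -0.78 to 1.23 for Gabbr2, from -0.79 to 0.32 for Chrm3 and from -1.37 to 0.95 for Grin1, which leaves room for a change in either direction.

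In delta cells Grik4 had 0.696, 2.55 and 2.21 CPM against 4.96, 4.97 and 3.32 CPM in controls (log2 difference -1.26 ± 0.56 SE, adjusted p = 0.395), Grin2c 0.835, 2.93 and 1.23 CPM against 4.77, 5.84 and 1.04 CPM (-1.23 ± 0.56, adjusted p = 0.404) and Gabbr2 0, 0 and 0.819 CPM against 0.477, 0.973 and 3.74 CPM (-2.24 ± 0.91, adjusted p = 0.339). Glra1 held 2 counts in the treated and 14 in the control libraries, a ratio of 6.49 with a counting interval of 1.49 to 58.9 and an adjusted p of 0.321. Chrm4, high in delta cells, had a 95% interval from -1.12 to 0.54. Control and treated delta libraries shared no date, so treatment and date cannot be told apart there.

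**Figure D5:**
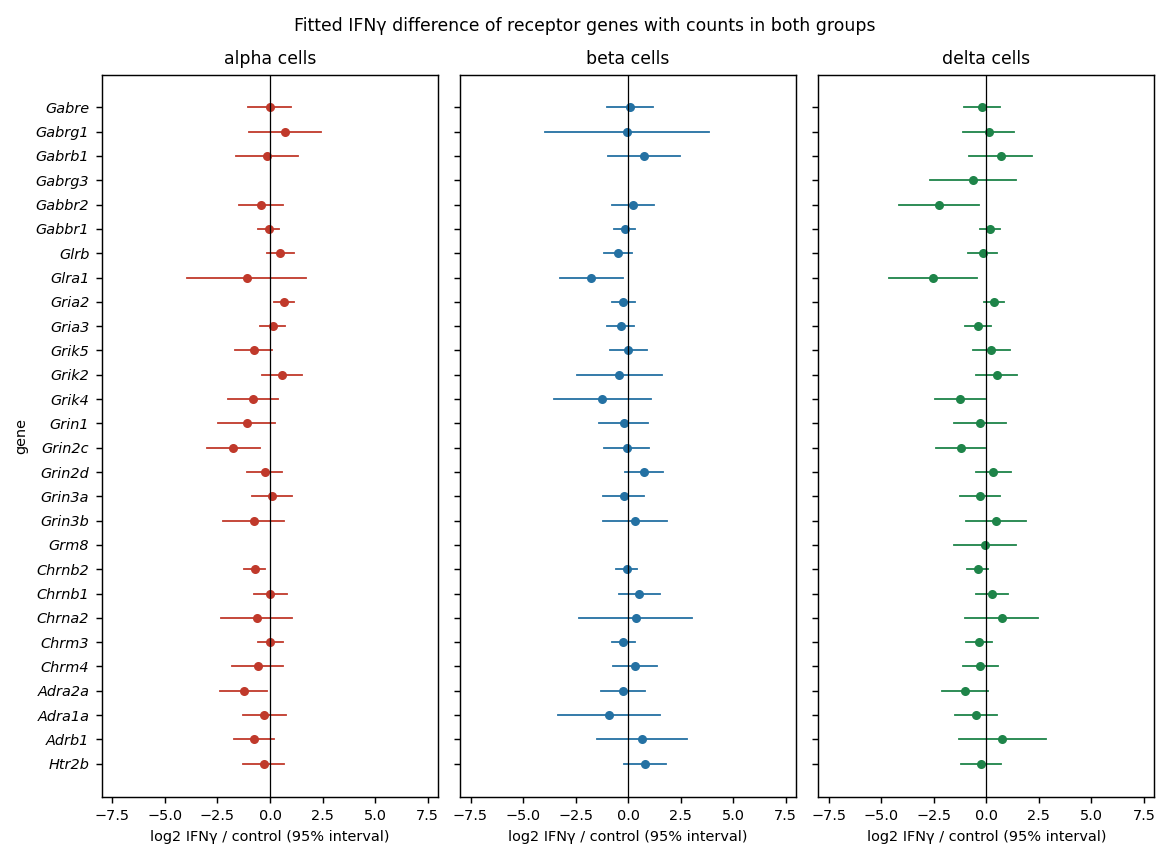
Fitted log2 difference of IFNγ against control (x axis) with its 95% interval for tested receptor genes (y axis) in alpha, beta and delta cells, n = 3 libraries a group. Genes with a group at 0 counts are left out of that panel, and the genes that pass no adjusted test include Gabbr2 in delta cells at -2.24 and Gria2 in alpha cells at 0.65.

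The difference of the IFNγ response between cell types was tested as well. Of 30 receptor genes 0 were called by edgeR for alpha minus beta, 0 for delta minus beta and 0 for delta minus alpha, beside 0.0%, 0.0% and 0.0% of all tested genes, and DESeq2 and limma-voom called 0 of them too. At an unadjusted p under 0.05 there were 4, 1 and 2. For Gria2 the fitted response of alpha cells exceeded that of beta cells by 0.87 ± 0.34 (SE, log2 scale, adjusted p = 0.369), and for Glrb by 0.97 ± 0.44 (adjusted p = 0.372). Without alpha IFNγ 2, 2 genes were called for this difference, Gria2 among them (adjusted p = 0.0375), and with the GC offset the difference of Gria2 was 0.38. Again the share of all tested genes called without that library is not given here.

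The wider system of transmitter signalling was read from 3 lists. Of 24 tested genes for synthesis, transport and breakdown of transmitters, 3 were higher and 10 lower in control alpha than in beta cells, 3 higher and 8 lower in delta than in beta cells, and 7 higher and 5 lower in delta than in alpha cells. These counts stand beside 9.56% higher and 10.1% lower among all tested genes for alpha against beta, 11.4% and 9.11% for delta against beta, and 10.9% and 8.77% for delta against alpha. Gad1, which makes GABA from glutamate, averaged 82.3 ± 26.3 CPM in beta, 6.15 ± 4.99 CPM in alpha and 0.381 ± 0.659 CPM in delta controls. Gad2, the other enzyme of this kind, named after its values were seen, went the other way at low levels, with 0.642 ± 0.306 CPM in delta and 0.039 CPM in beta controls (adjusted p = 0.0475). Ache, which breaks down acetylcholine, was highest in delta cells, with 34.9 ± 9.10 CPM in delta, 9.63 ± 1.00 CPM in alpha and 1.04 ± 0.774 CPM in beta controls (log2 difference to beta 5.01 ± 0.54 and 3.15 ± 0.53 SE, adjusted p = 1.47e-06 and 0.00029). Th and Ddc, enzymes of catecholamine synthesis, averaged 22.2 and 226 CPM in beta controls, against 0.410 and 76.2 CPM in alpha and 8.54 and 6.29 CPM in delta controls. Maob, which breaks down monoamines, averaged 163 ± 36.1 CPM in beta, 77.5 ± 9.21 CPM in alpha and 8.40 ± 2.74 CPM in delta controls. The cholinesterase gene Bche averaged 1.5 ± 0.772 CPM in delta and 0 in alpha controls.

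Of 48 tested scaffolds and auxiliary subunits, 16 were higher (beside 9.56% of all tested genes) and 7 lower (10.1%) in control alpha than in beta cells, 16 higher (11.4%) and 6 lower (9.11%) in delta than in beta cells, and 12 higher (10.9%) and 8 lower (8.77%) in delta than in alpha cells. The AMPA receptor auxiliary subunits parted as follows: Cacng4 averaged 18.6 ± 1.48 CPM in alpha and 1.28 ± 0.628 CPM in beta controls (log2 difference 3.83 ± 0.46 SE, adjusted p = 1.03e-05), while Cacng2 averaged 6.84 ± 0.620 CPM in delta controls, 0.239 CPM in beta and 0 in alpha controls. Cacng7 averaged 2.30 ± 1.60 CPM in alpha and 0.0865 CPM in beta controls, and Shisa6 8.40 ± 0.717 CPM in delta and 0.242 CPM in beta controls. Of the Ly6 family, which modulates nicotinic receptors, Ly6h averaged 13.4 ± 4.55 CPM in delta, 0.039 CPM in beta and 0 in alpha controls, and Lynx1 4.51 ± 1.70 CPM in alpha and 0.039 CPM in beta controls. Plcl1, which binds GABA-A receptors, averaged 3.38 ± 1.52 CPM in alpha, 0.039 CPM in beta and 0.133 CPM in delta controls. Kctd8, an auxiliary subunit of GABA-B receptors, averaged 27.7 ± 2.53 CPM in delta and 1.19 ± 0.263 CPM in alpha controls (log2 difference 4.50 ± 0.33, adjusted p = 3.03e-08). Kctd12b, of the same family and named after its values were seen, was lower in delta cells, with 3.36 ± 3.62 CPM against 39.5 ± 2.94 CPM in alpha controls (-3.56 ± 0.54, adjusted p = 8.97e-05). Dlgap1, a scaffold protein of the excitatory synapse, averaged 30.7 ± 5.80 CPM in beta controls and 1.01 ± 0.361 CPM in delta controls (-4.90 ± 0.57, adjusted p = 4.08e-06).

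Of 52 tested genes for G proteins, adenylyl cyclases and regulators of G proteins, 12 were higher (beside 9.56% of all tested genes) and 11 lower (10.1%) in control alpha than in beta cells, 14 higher (11.4%) and 12 lower (9.11%) in delta than in beta cells, and 11 higher (10.9%) and 9 lower (8.77%) in delta than in alpha cells. The adenylyl cyclases, which make the cyclic AMP that the inhibitory receptors lower, differed: Adcy1 averaged 13.8 ± 4.32 CPM in alpha, 0.204 CPM in beta and 0.803 CPM in delta controls, and Adcy8 averaged 26.4 ± 6.44 CPM in delta, 0.715 CPM in beta and 0 in alpha controls. Adcy2 averaged 7.05 ± 4.01 CPM in delta, 0.117 CPM in beta and 0.227 CPM in alpha controls, and Adcy5 11.1 ± 2.53 CPM in alpha and 0.944 ± 0.201 CPM in beta controls. Of the regulators that shorten G protein signals, Rgs8 averaged 3.69 ± 2.36 CPM in alpha, 0.0897 CPM in beta and 0.384 CPM in delta controls, and Rgs20 5.23 ± 1.75 CPM in delta and 0.330 CPM in beta controls. Grk5, a kinase that desensitises receptors, averaged 8.90 ± 0.620 CPM in delta and 89.0 ± 11.1 CPM in beta controls (log2 difference -3.32 ± 0.18, adjusted p = 9.85e-10). With IFNγ, 0 genes of the first and second list were called in any cell type by edgeR, with 7, 2 and 6 and with 9, 3 and 7 at an unadjusted p under 0.05 in alpha, beta and delta cells. In the third list 1 of 52 genes was called in delta cells, beside 1.39% of all tested genes, and 0 in the others. This was Gnai1, an inhibitory G protein subunit, with 8.30, 10.2 and 25.6 CPM in delta controls and 3.9, 3.69 and 7.70 CPM with IFNγ (log2 difference -1.49 ± 0.36 SE, adjusted p = 0.0411). It was called in 12 of 27 alternatives. Without delta control 3 the log2 difference was -0.82 with an adjusted p of 0.219, without delta IFNγ 1 or 2 the adjusted p was 0.217 and 0.190, and without any 1 of the controls or IFNγ libraries of beta cells or the controls of alpha cells it lay between 0.053 and 0.0598. Delta control 3 was the delta library in which Gcg reached 2263 CPM, Gnai1 averaged 115 ± 12.6 CPM in alpha controls, and the part of alpha cell RNA in the difference was not tested. As for the receptor genes, treatment and date cannot be told apart in delta cells. An unadjusted p under 0.05 was reached in that list by 10, 3 and 9 genes.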

How the data were processed

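RNA of sorted mouse alpha, beta and delta cells was measured in 18 libraries, 3 for each of 6 groups. The authors made rRNA-depleted, strand-marking, random-primed libraries (Ovation SoLo), used STAR 2.5.2b for alignment (GRCm38) and RSEM for gene quantification. The deposited files hold expected counts (estimates, part of them fractions) and TPM per gene, which the authors obtained from RSEM. Expected counts were rounded to whole numbers. The receptor genes were found by symbol (GENCODE M21, 55227 of 55487 identifiers matched) and by a summed expected count of at least 90. These genes, the gene lists and the tests were chosen with earlier results of these data known.

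The test was that of edgeR 4.0.16 (R 4.3.3): all 18 libraries in a joint fit with a mean per group, TMM scaling, filterByExpr with a minimum count of 10, and the quasi-likelihood F-test with Benjamini-Hochberg adjustment over 17338 genes. The SE is the absolute log2 difference divided by the square root of the F statistic. The 95% intervals use this SE with the t distribution, so both are approximate. For a group with 0 counts, 3 counts over that group served as the floor, and 1 to 3 counts through a ratio with an exact (Clopper-Pearson) 95% interval. Both rest on counts summed over the libraries of a group, so they leave out the spread between libraries. The sources used here do not say whether molecular identifiers were used, so even the counting error may not be fully covered. The study fitted a batch term. The labels give none, so the date in the file names (9 dates, 5 with a single library) served as an alternative. Other alternatives were DESeq2 1.42.0, limma-voom (limma 3.58.1), DESeq2 size factors, no count filter, a replicate block, GC offsets, the compared groups alone and leaving out libraries. Named, where reported here, are the genes called in any comparison, the 8 of highest TPM in each control group, and up to 4 per pathway list and comparison of controls, those of the largest differences called. Promoters are from RefSeq (GRCm38.p6). Some genes are counted but not reported here by name.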

Additional observations from a re-analysis of the deposited data

How the results depend on the processing

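Of 96 calls of receptor genes in the comparisons, 60 were kept in all 27 alternatives and 36 were lost in at least 1. Losses were mostly of genes of few counts. DESeq2 size factors kept all 96, the DESeq2 test 92 and limma-voom 90. The date as a fixed term kept 69 and lowered the count for IFNγ delta against IFNγ beta from 23 to 8, with Grin1 turned to 1.55, where these groups share no date and are linked through 1 delta and 1 alpha library alone. Without the count filter, IFNγ against control gave 4 genes in alpha (Adra2a, Grik5, Grin1, Grin2c) and 2 in delta cells (Adra2a, Gabbr2), and the response of delta minus that of beta 1 (Gabbr2). GC offsets gave 1 in delta cells. The share of all tested genes called is not given here for any of the alternatives. The causes of these changes were not tested. Leaving out 1 library at a time, the counts ranged from 12 to 16, 17 to 19 and 9 to 11 for control alpha against beta, delta against beta and delta against alpha, from 16 to 21, 18 to 23 and 8 to 11 in the same order with IFNγ, from 0 to 5 for IFNγ in alpha, 0 to 0 in beta and 0 to 0 in delta cells, and from 0 to 2, 0 to 0 and 0 to 0 for the response differences. The highest values for IFNγ in alpha cells, 5, and for alpha minus beta, 2, came without alpha IFNγ 2.

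Samples of the same replicate number did not deviate together (mean correlation 0.0216 over 45 pairs, -0.269 to 0.371), those of the same date a little (0.177 over 18 pairs). These correlations gave no sign of a pairing by number but cannot exclude one. Alpha and beta control 1 shared a date, as did alpha and beta control 2. Some dates held control and IFNγ libraries of alpha and of beta cells, which the main test did not pair. With the replicate block 94 of 96 calls were kept, Gabbr1 (IFNγ alpha against beta) and Chrna2 (IFNγ delta against beta) being lost, and the counts were 15, 19 and 9 in controls, 19, 22 and 10 with IFNγ, and 0 for each comparison of treatment. At these depths genes of under about 1 CPM rest on few counts.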
